A study of Homo sapiens with 12 samples.

Results

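The 9 genes described here are classical target genes shared by the glucocorticoid and progesterone receptors: FKBP5, TSC22D3, SGK1, ZBTB16, CEBPD, NFKBIA, BCL6, TAT and GADD45B. Steroid receptors are ligand-activated transcription factors, and the glucocorticoid and progesterone receptors recognise the same DNA element, an inverted repeat of the hexamer TGTTCT. In cells rich in progesterone receptor, a progestin can therefore switch on genes that are best known from glucocorticoid biology, among them feedback regulators of the receptor itself and of inflammatory signalling. The genes were taken by name, with earlier results of these data known. All 9 were found on the array, and each is represented by the brightest probe set that carries its symbol, so that 9 of the 21214 probe sets with a gene symbol are described. Of these, 8 genes had a single probe set with their symbol alone. The FKBP5 probe set also carries the symbol LOC285847, and a dimmer probe set that pairs FKBP5 with 2 other symbols was not used.

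The measurements come from T47D-MTVL cells, a human breast cancer line of luminal type with abundant progesterone receptor and 1 integrated copy of a luciferase reporter driven by the MMTV promoter. Cells were transfected with siCt, a control siRNA, or with siCHD8, which targets the chromatin remodeler CHD8. They were kept without serum for 48 h, and were then given for 6 h either ethanol vehicle (EtOH) or 10 nM of the synthetic progestin R5020. The 4 conditions, siCt EtOH, siCt R5020, siCHD8 EtOH and siCHD8 R5020, had 3 arrays each, which the labels call biological replicates. Every value is an RMA log2 intensity from a whole-transcript microarray, so that a difference of 1 is a doubling. The comparisons ask how far R5020 raised these genes and whether the knockdown changed that response. CHD8 was targeted with 1 siRNA sequence in 1 cell line, and the receptor through which R5020 acted was not varied.

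Arrays of 1 condition correlated with each other at 0.989 to 0.996, and 12 arrays limit the precision to a median standard error of 0.13 for a difference between conditions. The weights that limma gives to arrays were lowest for siCt EtOH replicate 3 (0.389) and siCHD8 EtOH replicate 1 (0.417). The differences of responses and some other values are therefore also given without both. CHD8 itself read 5.70, 5.71 and 5.91 in siCt EtOH, 5.42, 5.11 and 5.04 in siCHD8 EtOH, 5.52, 5.24 and 5.29 in siCt R5020, and 4.77, 4.62 and 4.81 in siCHD8 R5020. The siCHD8 arrays lay below the siCt arrays without overlap under both treatments, by 0.58 in EtOH and 0.62 in R5020. In limma the unadjusted p was 0.000354 and 0.000201, and the adjusted p, 0.0711 and 0.0627, missed the threshold of 0.05. The study also reports the knockdown by RT-qPCR and western blot, apart from these arrays. R5020 lowered CHD8 by 0.42 with siCt (adjusted p = 0.0349) and by 0.46 with siCHD8 (adjusted p = 0.0258). All 9 luminal epithelial markers stood among the brightest 25% of probe sets, and of 9 markers of fibroblasts, blood and endothelial cells 5 stood among the dimmest 25% and 0 among the brightest 25%. The mean of the luminal markers was lower with R5020 (9.05 to 9.12 against 9.64 to 9.77 in siCt, and 8.97 to 9.04 against 9.50 to 9.69 in siCHD8). The markers did not move alike. With siCt 5 were called lower: FOXA1 (-1.65), PGR (-1.23), ESR1 (-0.97), GATA3 (-0.73) and KRT18 (-0.56). The other 4 were not called: KRT8 (-0.23), CDH1 (-0.19), KRT19 (-0.09) and EPCAM (0.06). The part of this shift in the results was not tested. In RNA from whole cultures, a change in the number of expressing cells and a change in RNA per cell cannot be told apart.

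The start regions of the genes were searched for the receptor element. RefSeq windows of 300 bases (250 before and 50 from the transcription start, build GRCh38.p14) matched 6 of the 9 genes, with 13 windows in all; CEBPD, ZBTB16 and TAT had none. Both strands were searched. The full element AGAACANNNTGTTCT was in 0 of the 13 windows and in 0.00285% of all 35116 windows. A looser inverted repeat, GNACANNNTGTNC, was in 0 of 13 and in 0.39% of all windows. The single hexamer TGTTCT was in 3 of 13 windows and in 14.8% of all windows, 1 each for FKBP5, SGK1 and BCL6. These 3 windows are printed because they hold the hexamer, and the windows without it also belong to genes raised by R5020. All 3 read along the minus strand, and the capitals mark the hexamer, which appears as its reverse complement AGAACA. A match is a run of letters in a window and no evidence of binding, and no match says nothing about elements farther away.
FKBP5, chr6:35728534-35728833: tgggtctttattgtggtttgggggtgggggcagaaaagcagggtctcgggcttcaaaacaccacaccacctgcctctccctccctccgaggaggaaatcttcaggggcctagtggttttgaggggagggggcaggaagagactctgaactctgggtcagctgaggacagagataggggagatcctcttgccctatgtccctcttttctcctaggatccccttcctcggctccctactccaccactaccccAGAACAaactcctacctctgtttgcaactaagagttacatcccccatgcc
SGK1, chr6:134177812-134178111: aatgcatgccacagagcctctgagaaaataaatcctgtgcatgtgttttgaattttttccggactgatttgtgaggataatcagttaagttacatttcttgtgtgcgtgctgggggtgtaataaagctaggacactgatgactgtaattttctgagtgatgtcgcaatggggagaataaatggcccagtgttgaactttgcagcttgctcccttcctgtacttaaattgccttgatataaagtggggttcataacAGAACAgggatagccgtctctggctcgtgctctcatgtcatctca
BCL6, chr3:187736452-187736751: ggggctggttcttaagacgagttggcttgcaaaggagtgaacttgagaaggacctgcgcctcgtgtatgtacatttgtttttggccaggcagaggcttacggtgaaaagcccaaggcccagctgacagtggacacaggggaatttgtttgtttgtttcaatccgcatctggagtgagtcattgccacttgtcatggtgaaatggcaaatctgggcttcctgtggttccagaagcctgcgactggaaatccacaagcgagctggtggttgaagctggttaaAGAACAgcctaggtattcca

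In the FKBP5 window the hexamer covered bases 1 to 6 counted from the start, in the SGK1 window bases 6 to 11, and in the BCL6 window bases 31 to 36. FKBP5 has 2 windows, SGK1 3 and BCL6 2, and the other windows of these genes lacked the hexamer. Some of these starts lie far upstream of others of the same gene, and the array does not tell which start was used. A further search, chosen after the windows had been read, looked for the consensus of NF-kappaB, the transcription factor that NFKBIA inhibits. It was in 2 of 13 windows and in 11.3% of all windows. NFKBIA, a known target of NF-kappaB, carried it at bases -81 to -72, in capitals in its minus-strand window, and the GADD45B window held it at -163 to -154 and at -15 to -6.
NFKBIA, chr14:35404700-35404999: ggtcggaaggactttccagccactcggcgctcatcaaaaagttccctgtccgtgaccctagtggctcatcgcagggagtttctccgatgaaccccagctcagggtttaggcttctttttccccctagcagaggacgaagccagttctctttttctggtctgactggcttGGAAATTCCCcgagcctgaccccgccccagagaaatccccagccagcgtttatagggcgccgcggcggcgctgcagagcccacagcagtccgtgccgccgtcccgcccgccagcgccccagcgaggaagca

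R5020 raised 8 of the 9 genes with siCt and the same 8 with siCHD8, and lowered 0; TAT was the exception. The test was limma across all 21214 probe sets with Benjamini-Hochberg adjustment, called at an adjusted p under 0.05. Over all probe sets 8.1% were called higher and 6% lower with siCt, and 6.04% and 5.43% with siCHD8. The median change of the 9 genes was 1.28 with siCt and 1.22 with siCHD8, against -0.05 and -0.02 over all probe sets. In the same 8 genes every R5020 array lay above every EtOH array with each siRNA, which held for 15.3% of all probe sets with siCt and 13% with siCHD8. The study's results used stricter limits, a fold above 1.5 and a false discovery rate below 0.01, where its methods name a p-value. With the adjusted p below 0.01 and the same fold, 7 genes remained with each siRNA, and GADD45B dropped out. Over all probe sets 4.4% passed with siCt and 3.37% with siCHD8. The rises spanned from 3.05 for FKBP5 to 0.49 for GADD45B on the log2 scale, and the plot of the 12 arrays shows each gene on its own axis.

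**Figure D1:**
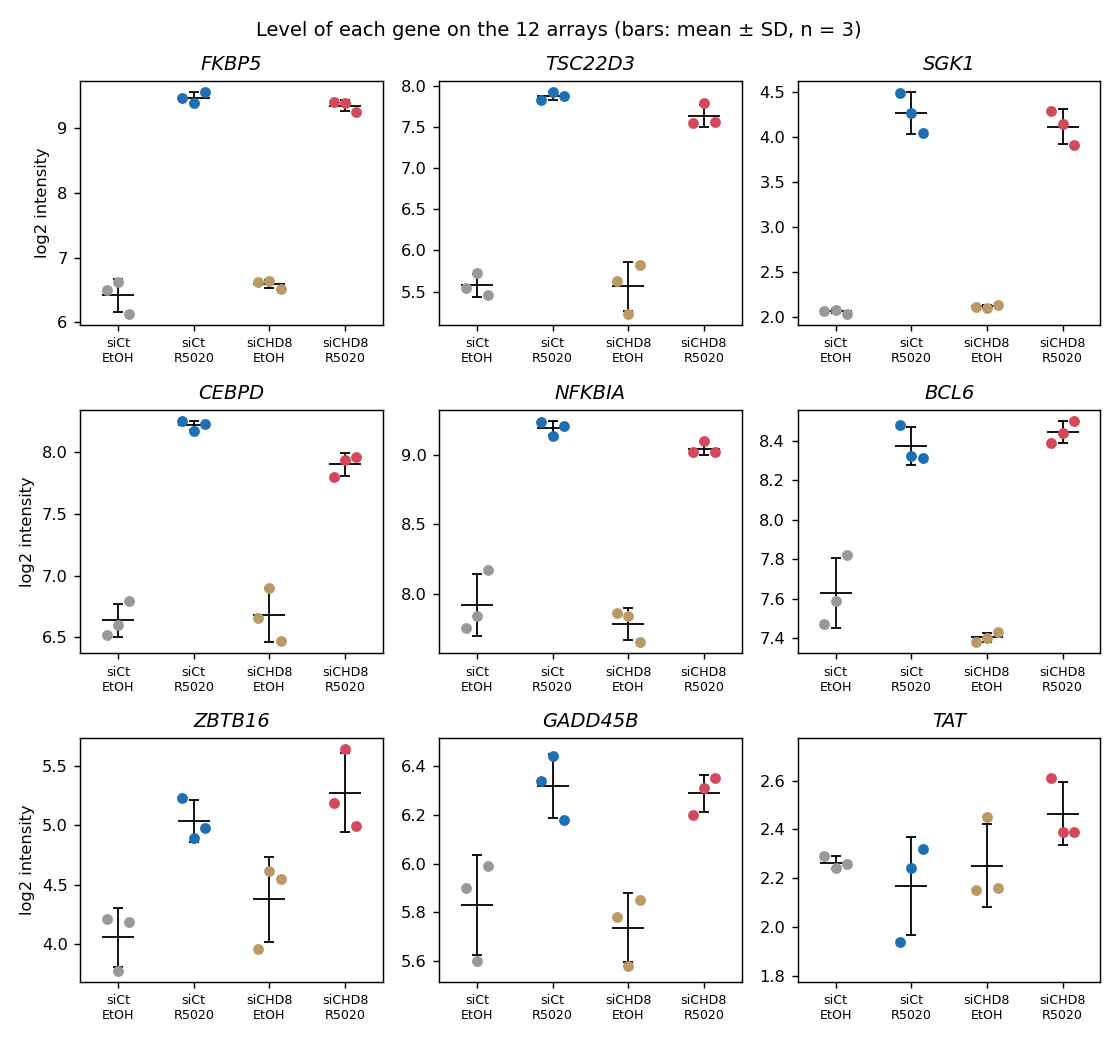
RMA log2 intensity (vertical axes, each with its own range) of the 9 genes on the 12 arrays, by siRNA and treatment (horizontal axes). Points are arrays and black bars are the mean ± SD of 3; in 8 genes the R5020 arrays lie above the EtOH arrays of the same siRNA, while TAT stays between 1.94 and 2.61.

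FKBP5 showed the largest response of the 9. It encodes an immunophilin co-chaperone of HSP90 that binds steroid receptor complexes and lowers their affinity for hormone, a negative feedback on the receptor. It read 6.50, 6.62 and 6.13 in siCt EtOH, 9.47, 9.39 and 9.56 in siCt R5020, 6.62, 6.63 and 6.51 in siCHD8 EtOH, and 9.40, 9.39 and 9.25 in siCHD8 R5020. The vehicle and hormone arrays were far apart with both siRNAs, with the lowest R5020 array 2.77 above the highest EtOH array in siCt. The rise was 3.05 ± 0.12 (SE), or 8.30-fold, with siCt (adjusted p = 9.17e-10), and 2.76, or 6.78-fold, with siCHD8 (adjusted p = 3.29e-09). It ranked 5 among the rises of all probe sets with siCt and 8 with siCHD8. Averaging in the dimmer probe set shared with other symbols lowered the rises to 1.89 and 1.58, both still called.

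TSC22D3 and NFKBIA are the anti-inflammatory members. TSC22D3 encodes GILZ, a leucine zipper protein that restrains NF-kappaB and AP-1. It read 5.54, 5.72 and 5.46 in siCt EtOH, 7.83, 7.92 and 7.88 in siCt R5020, 5.63, 5.23 and 5.82 in siCHD8 EtOH, and 7.55, 7.79 and 7.56 in siCHD8 R5020. The 3 siCt R5020 arrays had an SD of 0.05 and lay above all 3 siCHD8 R5020 arrays. The rise was 2.30 ± 0.14 (SE), or 4.94-fold, with siCt (adjusted p = 3.01e-08) and 2.07, or 4.20-fold, with siCHD8 (adjusted p = 1.03e-07).

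NFKBIA encodes I-kappaB-alpha, which holds NF-kappaB in the cytoplasm. In siCt EtOH its probe set lay above 91.9% of tested probe sets. It read 7.75, 7.84 and 8.17 in siCt EtOH, 9.24, 9.14 and 9.21 in siCt R5020, 7.86, 7.84 and 7.65 in siCHD8 EtOH, and 9.02, 9.10 and 9.02 in siCHD8 R5020. Its R5020 arrays were tight with both siRNAs, and most of the spread lay in siCt EtOH, where replicate 3 was highest. The rise was 1.28 ± 0.12 (SE), or 2.42-fold, with siCt (adjusted p = 2.25e-06) and 1.27, or 2.41-fold, with siCHD8 (adjusted p = 2.64e-06), the closest pair of responses among the 9. Without the 2 low-weight arrays they were 1.40 and 1.30.

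SGK1 encodes a serum- and glucocorticoid-induced kinase that promotes sodium channel retention at the cell surface and shares targets with AKT. It read 2.07, 2.08 and 2.04 in siCt EtOH, 4.49, 4.27 and 4.04 in siCt R5020, 2.11, 2.10 and 2.14 in siCHD8 EtOH, and 4.29, 4.14 and 3.91 in siCHD8 R5020. The EtOH arrays were near the bottom of the scale, above 13.9% of tested probe sets, with an SD of 0.02 in each group, whereas the R5020 arrays spread with an SD of 0.23 in siCt and 0.19 in siCHD8. The rise was 2.20 ± 0.13 (SE), or 4.60-fold, with siCt (adjusted p = 1.77e-08) and 1.99, or 3.98-fold, with siCHD8 (adjusted p = 5.57e-08). RMA compresses differences at such low intensities, so these folds may understate the change.

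Among the transcription factors of the set, CEBPD responded most. CEBPD is a CCAAT/enhancer binding protein of the acute phase response and adipocyte differentiation. It read 6.52, 6.60 and 6.79 in siCt EtOH, 8.25, 8.17 and 8.23 in siCt R5020, 6.66, 6.90 and 6.47 in siCHD8 EtOH, and 7.80, 7.94 and 7.96 in siCHD8 R5020. The vehicle groups overlapped, while each siCHD8 R5020 array was below each siCt R5020 array. The rise was 1.58 ± 0.12 (SE), or 2.99-fold, with siCt (adjusted p = 3.12e-07) and 1.22, or 2.33-fold, with siCHD8 (adjusted p = 4.84e-06).

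ZBTB16, or PLZF, is a BTB zinc finger repressor of differentiation and proliferation genes. It read 4.21, 3.78 and 4.19 in siCt EtOH, 5.23, 4.89 and 4.98 in siCt R5020, 3.96, 4.62 and 4.55 in siCHD8 EtOH, and 5.19, 5.64 and 4.99 in siCHD8 R5020. It was the noisiest of the 9, and single R5020 arrays exceeded single EtOH arrays by between 0.38 and 1.68 with siCHD8. The rise was 0.97 ± 0.19 (SE), or 1.97-fold, with siCt (adjusted p = 0.00281) and 0.90, or 1.86-fold, with siCHD8 (adjusted p = 0.00606). Without the 2 low-weight arrays the siCHD8 value was 0.69 (adjusted p = 0.0335).

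BCL6, a BTB zinc finger repressor related to ZBTB16 and known as the master regulator of germinal centre B cells, read 7.47, 7.59 and 7.82 in siCt EtOH, 8.48, 8.32 and 8.31 in siCt R5020, 7.38, 7.40 and 7.43 in siCHD8 EtOH, and 8.39, 8.44 and 8.50 in siCHD8 R5020. The R5020 groups overlapped, and all 3 siCHD8 EtOH arrays were below the siCt EtOH arrays. The rise was 0.74 ± 0.11 (SE), or 1.67-fold, with siCt (adjusted p = 0.0002) and 1.04, or 2.05-fold, with siCHD8 (adjusted p = 8.81e-06), so BCL6 was the only 1 of the 7 genes past the stricter limits whose estimate was larger with siCHD8.

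GADD45B, a stress-inducible regulator of MAP kinase signalling and DNA demethylation, read 5.90, 5.60 and 5.99 in siCt EtOH, 6.34, 6.44 and 6.18 in siCt R5020, 5.78, 5.58 and 5.85 in siCHD8 EtOH, and 6.20, 6.31 and 6.35 in siCHD8 R5020. The groups did not overlap with either siRNA, but the gap in siCt was only 0.19. The rise was 0.49 ± 0.12 (SE), or 1.40-fold, with siCt (adjusted p = 0.0151) and 0.55, or 1.46-fold, with siCHD8 (adjusted p = 0.00808). The call with siCt was lost without siCt EtOH replicate 2 (0.37, adjusted p = 0.0643), without siCt R5020 replicate 1 (0.48, adjusted p = 0.0528) and without siCt R5020 replicate 2 (0.43, adjusted p = 0.0671).

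TAT, the tyrosine aminotransferase that is the textbook glucocorticoid target of liver, was the only 1 of the 9 not called. It read 2.29, 2.24 and 2.26 in siCt EtOH, 1.94, 2.24 and 2.32 in siCt R5020, 2.15, 2.45 and 2.16 in siCHD8 EtOH, and 2.61, 2.39 and 2.39 in siCHD8 R5020. These levels were above only 17.1% of tested probe sets in siCt EtOH, and the vehicle and hormone arrays overlapped with both siRNAs. The change was -0.09 (95% interval -0.36 to 0.17, adjusted p = 0.67) with siCt and 0.21 (-0.05 to 0.48, adjusted p = 0.36) with siCHD8.

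**Figure D2:**
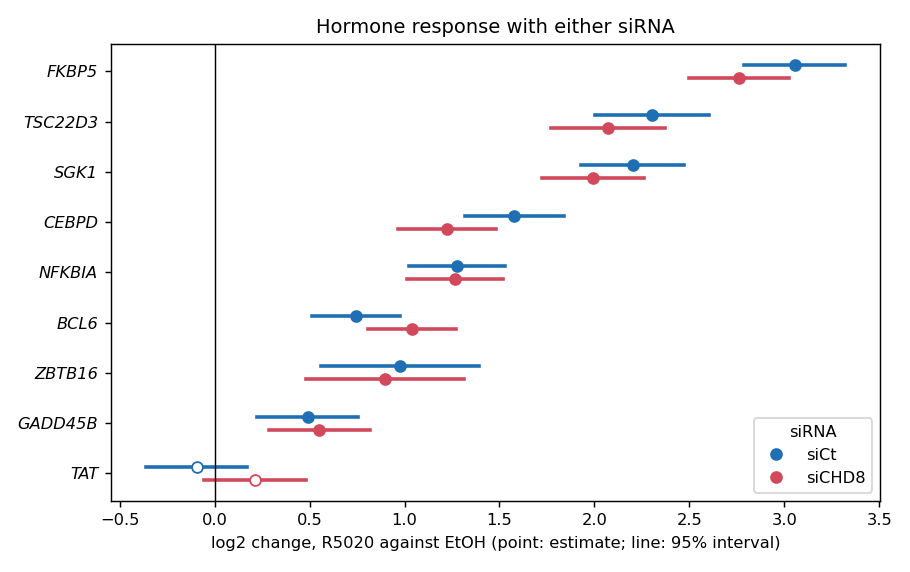
Log2 change from EtOH to R5020 (horizontal axis) of each gene with siCt (blue) and siCHD8 (red); points are limma estimates, lines their 95% intervals, and filled points have an adjusted p under 0.05. The changes run from 3.05 (FKBP5) to -0.09 (TAT) with siCt, and the intervals of the 2 siRNAs overlap for every gene.

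The difference of responses to R5020 was tested directly. This difference, siCHD8 minus siCt, was called for 0 of 9 genes, and 0 had an unadjusted p under 0.05; over all probe sets limma called 0%, with 2027 at an unadjusted p under 0.05 and a lowest adjusted p of 0.356. The estimates ran from -0.36 to 0.31, with 6 below 0 and 3 above, where 47.9% of all probe sets were below 0. The 3 largest responders had smaller estimates with siCHD8: FKBP5 differed by -0.29 (95% interval -0.67 to 0.08), TSC22D3 by -0.23 (-0.66 to 0.19) and SGK1 by -0.21 (-0.59 to 0.17). CEBPD came nearest to a difference, at -0.36 (-0.72 to 0.01, adjusted p = 0.531). BCL6 pointed the other way at 0.29 (-0.03 to 0.62, adjusted p = 0.567), and NFKBIA was near 0 at -0.01 (-0.37 to 0.35). Leaving out the 2 low-weight arrays moved these estimates in both directions. Those of FKBP5, TSC22D3 and BCL6 shrank to -0.13, -0.14 and 0.19, and SGK1 stayed at -0.20. CEBPD, ZBTB16 and NFKBIA moved away from 0 to -0.44, -0.35 and -0.10. TAT and GADD45B stood at 0.25 and 0.004, and 0 of the 9 genes were called.

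Levels under 1 treatment also gave 0 called genes. In EtOH the siCHD8 arrays differed from siCt by between -0.22 (BCL6) and 0.32 (ZBTB16). An unadjusted p under 0.05 was reached by 0 of 9 genes and by 2574 of all 21214 probe sets. After adjustment 0.292% of all probe sets were called. BCL6 was lower without overlap by 0.22 (95% interval of the difference -0.46 to 0.01) and SGK1 higher without overlap by 0.05, 2 of 9 genes against 13.7% of all probe sets that did not overlap. Without the 2 low-weight arrays BCL6 differed by -0.12 and ZBTB16 by 0.59 (adjusted p = 0.259).

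In R5020, 0.189% of all probe sets were called after adjustment. An unadjusted p under 0.05 was reached by 2 of the 9 genes and by 2952 of all 21214 probe sets. CEBPD was lower by 0.31 (95% interval of the difference -0.57 to -0.06, adjusted p = 0.267), and TAT was higher by 0.30 (0.03 to 0.56, adjusted p = 0.312), the latter between values near the bottom of the scale. The siCHD8 arrays did not overlap the siCt arrays in 4 of 9 genes, below for TSC22D3, CEBPD and NFKBIA and above for TAT, where 27.6% of all probe sets did not overlap. The siCHD8 minus siCt estimates for TSC22D3 and NFKBIA were -0.24 and -0.15.

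**Figure D3:**
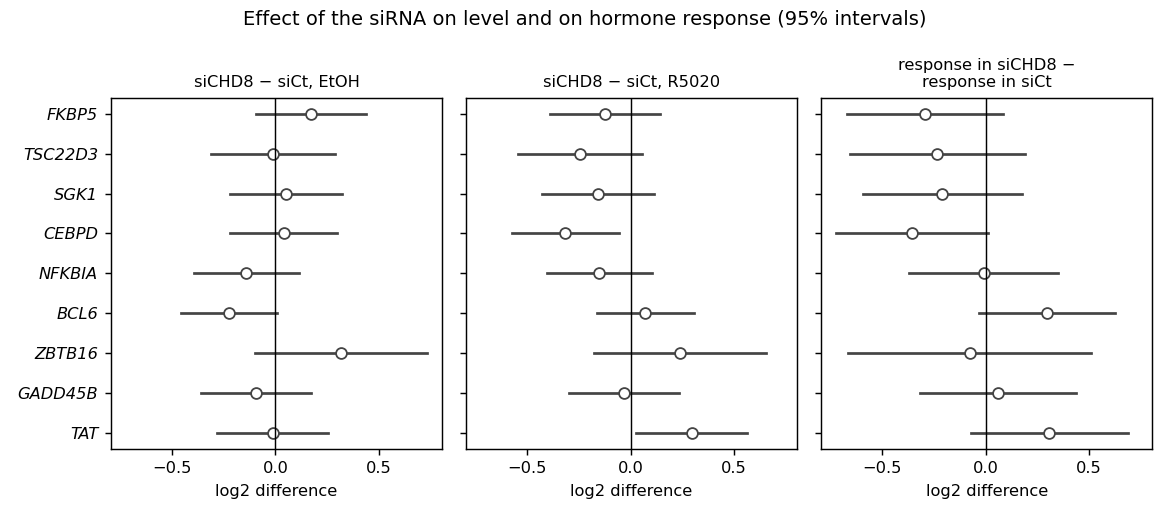
Log2 difference between siCHD8 and siCt (horizontal axes) for the level in EtOH, the level in R5020 and the response to R5020, with 95% intervals as lines; open points mark an adjusted p of 0.05 or more. All points are open, and the intervals clear of 0 belong to CEBPD and TAT in R5020.

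A ratio of responses, the measure that the study's methods use for CHD8 dependence, sorted the genes differently from the test. The linear fold with siCHD8 was divided by that with siCt, and a ratio below 0.8 or above 1.2 counted as dependent. Of the 7 genes past the stricter limits with siCt, 2 were outside: CEBPD at 0.78 and BCL6 at 1.23, on opposite sides. Among all 933 probe sets that were higher at these limits, 32.9% were outside. Both ratios lay close to the limit, with 95% intervals of 0.61 to 1.01 for CEBPD and 0.98 to 1.54 for BCL6. FKBP5 at 0.82 was just inside, followed by TSC22D3 at 0.85, SGK1 at 0.87, ZBTB16 at 0.95 and NFKBIA at 0.99. Over 21 alternative settings CEBPD ranged from 0.72 to 0.84 and was outside in 17, BCL6 ranged from 1.14 to 1.29 and was outside in 18, FKBP5 ranged from 0.76 to 0.91 and was outside in 5, and NFKBIA was outside in 0.

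Relatives of the 9 genes followed no common course. Of 27 measured paralogs from the FKBP, TSC22, SGK, C/EBP, I-kappaB, BCL6 and GADD45 families, 6 rose, 3 fell and 18 were not called with siCt, with a median of 0.05, and 5, 3 and 19 with siCHD8. CEBPA, the adipocyte and liver factor of the C/EBP family, rose by 0.995 with siCt and 0.82 with siCHD8. CEBPG rose by 0.80 and 0.61, while CEBPB, an inflammatory member of the family, changed by -0.34 and -0.27 without being called. TSC22D2 rose by 0.93 and 0.66 and TSC22D1 by 0.59 and 0.69, while TSC22D4 changed by -0.28 with siCt and fell by 0.41 with siCHD8 (adjusted p = 0.0465). FKBP1B, an immunophilin that binds the ryanodine receptor, rose by 0.86 and 0.56, and FKBP11 fell by 0.41 with siCt (adjusted p = 0.0401) and changed by 0.01 with siCHD8. FKBP4, the co-chaperone that opposes FKBP5 at the receptor, changed by 0.06 and 0.19, not called. Among the I-kappaB relatives of NFKBIA, BCL3 and NFKBIZ went down, while NFKBIB (0.18 and 0.03) and NFKBIE (0.36 and 0.25) were not called. BCL3 fell by 0.88 and 0.79, and NFKBIZ by 0.45 and 0.40 from a low 3.58 in siCt EtOH. GADD45G rose by 0.58 with siCt (adjusted p = 0.00259) and was not called with siCHD8 (0.18), and GADD45A was called with neither (0.29 and 0.11).

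Of 24 further genes known as targets of the glucocorticoid or progesterone receptor, 14 rose and 2 fell with siCt, and 15 rose and 2 fell with siCHD8, with medians of 0.62 and 0.77. HSD11B2, which inactivates cortisol, rose by 2.83 with siCt and 2.18 with siCHD8. Its difference of responses was -0.65 (95% interval -1.01 to -0.29, adjusted p = 0.49), the lowest p of that contrast in the 6 related lists, and was not called. ERRFI1, a feedback inhibitor of the EGF receptor, rose by 2.19 and 2.17, and PDK4, a kinase that limits pyruvate oxidation, by 2.02 and 2.29. MT2A, a metal-binding metallothionein whose probes may also detect its close paralogs, rose by 1.99 and 1.86. DUSP1, the phosphatase that switches off p38 and JNK, rose by 1.32 and 1.07. The clock gene PER1 was called with siCHD8 (0.72, adjusted p = 0.0015) and not with siCt (0.28, adjusted p = 0.172). KLF9 (0.21 and 0.12), CRISPLD2 (-0.18 and -0.20) and PCK1 (-0.13 and -0.14) were called with neither. ANGPTL4, an inhibitor of lipoprotein lipase, fell by 0.95 and 1.01, and EDN1, the vasoconstrictor endothelin, by 0.89 and 1.01. Thus TAT was not alone: 8 of these 24 targets were not called with siCt.

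**Figure D4:**
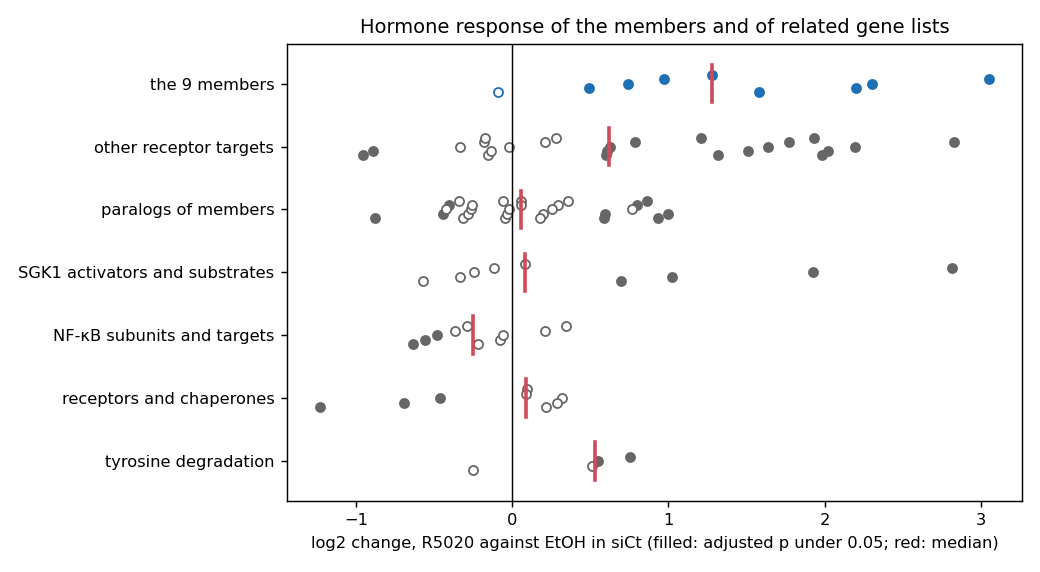
Log2 change from EtOH to R5020 with siCt (horizontal axis) for the 9 genes (blue) and 6 related lists (grey), 1 point a gene; filled points have an adjusted p under 0.05, and red lines are medians. The medians are 1.28 for the 9 genes, 0.62 for the other receptor targets and 0.05 for the paralogs.

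The receptors themselves moved the other way. PGR, the progesterone receptor, fell by 1.23 with siCt (adjusted p = 1.4e-06) and by 1.5 with siCHD8 (adjusted p = 2.09e-07). NR3C1, the glucocorticoid receptor, fell by 0.69 and 0.52, and NR3C2, the mineralocorticoid receptor, by 0.46 with siCt (adjusted p = 0.0296) and by 0.39 without being called with siCHD8 (adjusted p = 0.0728). The 5 chaperones and co-chaperones of the receptor complex, among them PTGES3, the p23 co-chaperone (0.32 and -0.12), HSP90AA1 (0.21 and 0.03) and STIP1 (0.09 and 0.13), were called in neither direction.

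The pathway that NFKBIA and TSC22D3 restrain was represented by 10 NF-kappaB subunits and target genes, of which 0 rose and 3 fell with siCt and 0 were called with siCHD8. NFKB2, a subunit precursor, fell by 0.64 with siCt (adjusted p = 0.0153) and changed by -0.06 with siCHD8. Its difference of responses was 0.57 (95% interval 0.08 to 1.07, unadjusted p = 0.025). REL, another subunit, changed by 0.21 and -0.23, called with neither siRNA. The REL difference went the other way, at -0.44 (95% interval -0.75 to -0.13, unadjusted p = 0.00855). Neither difference was called after adjustment. TNFAIP2 fell by 0.56 and RELA, the main activating subunit, by 0.48 with siCt, and RELB changed by -0.37 and -0.16, called with neither. The target genes TNFAIP3 (0.34 and 0.35), ICAM1 (-0.22 and -0.18) and CXCL8 (-0.08 and 0.05) were called with neither siRNA. NFKBIA, itself an NF-kappaB target, was called higher with both siRNAs. A count of 0 higher among the 10 listed genes lies near the shares over all probe sets, 8.1% with siCt and 6.04% with siCHD8. Some targets read low in siCt EtOH (CCL20 1.89, CXCL8 3.05 and TNFAIP3 3.18), and the route of the NFKBIA rise was not tested.

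Of 9 activators and substrates of SGK1, 4 rose with each siRNA. NDRG1, a stress-responsive protein that SGK1 phosphorylates, rose by 2.81 with siCt and 2.96 with siCHD8. SCNN1G, a subunit of the epithelial sodium channel, rose by 1.93 and 1.45, while the subunits SCNN1A (-0.34 and -0.27) and SCNN1B (-0.12 and -0.05) were not called. PDPK1, the kinase that activates SGK1, rose by 1.02 and 1.11, on a probe set that may also detect its near-identical pseudogene copy. NEDD4L, the ubiquitin ligase that removes the channel and is inhibited by SGK1, rose by 0.70 and 0.62. RICTOR, a component of the mTOR complex that primes SGK1, changed by 0.08 with siCt and fell by 0.41 with siCHD8 (adjusted p = 0.0282). The difference between these responses was -0.49 and was not called.

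Of the 4 measured genes downstream of TAT in tyrosine breakdown, 2 rose and 0 fell with siCt, and 1 rose and 1 fell with siCHD8. FAH, the last enzyme of the pathway, rose by 0.55 with siCt and 0.69 with siCHD8. HPD, which acts on the product of TAT, rose by 0.75 with siCt (adjusted p = 0.0319) and was not called with siCHD8 (0.52, adjusted p = 0.167). HGD was called with neither (0.51 and 0.42), and GSTZ1 fell by 0.37 with siCHD8 and changed by -0.25, not called, with siCt. In none of the 6 related lists was a gene called for the difference of responses or for the knockdown under either treatment.

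The genes whose centred profile over the 12 arrays was nearest to a member, by the root mean square difference on the log2 scale, are given as a description. FKBP5 was nearest to MPHOSPH10 (0.177) and MAN1A1 (0.191). The nearest profiles to TSC22D3 were AZGP1 (0.149) and TNFRSF10A (0.158), and to SGK1 they were FAM107B (0.123) and RNF122 (0.151). KIAA0930 was nearest to both NFKBIA (0.0723) and CEBPD (0.106), followed by STK24 for NFKBIA (0.0780) and NOTCH2 for CEBPD (0.114). BCL6 was nearest to PIEZO1 (0.0905) and EFNA3 (0.0927). Their estimates were larger with siCHD8 (0.97 and 0.99) than with siCt (0.70 and 0.78), which follows from being picked for likeness to BCL6. GADD45B was nearest to MANF (0.0884) and ZPR1 (0.0943), and ZBTB16 had the loosest matches, AK4 at 0.225 and SOX4 at 0.232. Since all 12 arrays share the same hormone contrast, such likeness holds for any gene with a similar rise.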

How the data were processed

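Total RNA of 12 samples was measured on the Affymetrix GeneChip Human Gene 1.0 ST array. The deposited values are log2 intensities that the authors normalized by RMA (background correction, quantile normalization and probe set summary), a step that compresses differences near the bottom of the scale. Gene symbols came from the platform annotation: of 33297 probe sets, 19461 carried 1 symbol, 1753 several and 12083 none. The probe sets with a symbol were tested as deposited, with no filter on intensity. A mean per condition was fitted in limma 3.58.1 (R 4.3.3) over all 12 arrays, followed by eBayes and Benjamini-Hochberg adjustment over 21214 probe sets for each of 5 contrasts: R5020 against EtOH with each siRNA, the difference of these responses, and siCHD8 against siCt under each treatment. Adjusted p-values and 95% intervals are from this fit, except those given without named arrays, which are from limma refits lacking them; the code was tested on simulated data. The members, lists and comparisons were chosen with earlier results of these data known. Named were the 9 members, CHD8, the 2 nearest profiles among probe sets with 1 symbol of each member called with siCt, the 4 genes of each list with the largest absolute change with siCt, and each paralog called in any contrast; further list genes were chosen after their values were seen. Motifs were searched with Python 3.11.15. Alternatives changed the normalization, dim probe sets, variance model, array weights, replicate block, call limits and arrays used. No column was left unused.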

Additional observations from a re-analysis of the deposited data

How the results depend on the processing

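The count of genes called for R5020 was 7 to 8 with siCt and 7 to 8 with siCHD8 over 22 alternatives, and the counts for the difference of responses and for the knockdown under each treatment were 0 throughout. Of 981 values of single genes under alternatives, 976 kept their call or lack of one, 0 reversed a call and 5 lost it, all for GADD45B: 2 at the stricter limits and 3 without 1 array. Leaving out the dimmest 25% of probe sets removed TAT. With the replicate block, 8 genes were called with siCt, 8 with siCHD8 and 0 in the other comparisons; over all probe sets the calls went from 2992 to 2723, from 2432 to 2245, and for the knockdown from 62 to 20 in EtOH and from 40 to 5 in R5020. Same-numbered arrays did not deviate together (correlations -0.247 to 0.0304 over 12 pairs, and 10 of 36 best matches with their own number), so the numbers were not taken as pairs. Dividing log2 changes in place of linear folds left 2 genes outside the ratio limits. With 3 arrays a condition, intervals for a difference of responses were wide, and the low intensities of SGK1 in vehicle and of TAT limit their folds.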
